A study of Xenopus tropicalis with 12 samples.

Results

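The response to thyroid hormone of tadpole intestine lacking thyroid hormone receptor alpha (TRα) was described from 6 of the 12 RNA-seq libraries of a Xenopus tropicalis study. They are the 3 libraries whose columns in the count table are named T3Homo (TRα(-/-) with T3) and the 3 named contHomo (TRα(-/-) without T3), chosen by column name. T3, the active form of thyroid hormone, was given at 10 nM for 18 h to tadpoles of stages 52 to 54, and knockout and wild-type tadpoles had the same parents. The other 6 libraries, contWT and T3WT, are by column name wild type without and with T3, and serve here to set the same step beside the knockout. Per the series design, each group is 1 RNA pool of several tadpoles, sequenced as 3 technical replicates. Each p-value therefore measures how far the replicate libraries of 1 pool scatter, and says nothing of variation between animals.

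The sources disagree on 6 libraries, and 3 of them are in this comparison. Sample titles and treatment labels give contHomo as wild type that received T3, and T3WT as TRα(-/-) that did not. For T3Homo and contWT the titles and the columns name the same genotype and treatment. If the titles hold, T3Homo against contHomo compares TRα(-/-) with wild type, both after T3, and is no T3 step. Directions below are stated for the libraries as their columns are named. The difference between both steps, (T3Homo minus contHomo) minus (T3WT minus contWT), has the same value under either reading. The count table holds identifiers with no gene names, and the reference gene table matched 0 of its 19921 identifiers. The level of the knocked-out gene itself, thra, could therefore not be read or set against the labels. The labels do not say how the gene was disrupted.

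Thyroid hormone receptors are nuclear receptors that sit on their target genes with and without hormone. Without hormone they recruit corepressors and keep targets low, and with hormone they recruit coactivators. TRα is the form that prevails in premetamorphic tadpoles, and TRβ, which remains in the knockout, is itself induced by hormone in frogs. In the intestine, T3 drives metamorphic remodelling, in which the larval epithelium dies, adult stem cells form and the connective tissue is rebuilt.

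Library totals were 34837299 to 40715696 counts in contHomo and 40295245 to 44755390 in T3Homo. Levels are in CPM, the share of a library's counts after scaling by trimmed mean of M values (TMM) factors, not corrected for gene length, and errors are SD over n = 3 libraries unless given as SE. An SE was taken as the absolute log2 change over the square root of the F statistic of its test. It can be too small where a group holds few counts, and is not given for the genes named by identifier. Both groups had about the same breadth, with 14846 ± 63 genes with a count in contHomo and 14805 ± 40 in T3Homo (exact permutation test, two-sided, p = 0.4). The 100 genes with the most counts took 48.91% and 48.95% of all counts (exact permutation test, p = 0.3). In a design of 3 against 3, p cannot go below 0.1. The T3WT libraries stood apart, with 15282 ± 46 genes with a count and TMM factors of 1.21, against 0.912 to 0.964 in the other 3 groups. In bulk tissue, fewer cells of a type and less RNA per cell cannot be told apart.

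In T3Homo, 365 genes were higher and 505 were lower than in contHomo, among 13172 tested. A gene was called at an adjusted p below 0.05 with at least a 2-fold difference (edgeR, quasi-likelihood test). This is 6.60% of the genes tested, 2.77% higher and 3.83% lower. A difference of at least 4-fold was found for 56 rises and 89 falls, at least 8-fold for 14 and 29, and at least 16-fold for 9 and 13. The 3 libraries of T3Homo and the 3 of contHomo did not overlap for 840 of the 870 called genes, and 65.6% of all genes tested did not overlap. Without the fold threshold 8351 genes passed (63.4%), and 7481 of those differed by less than 2-fold, since the libraries of a pool varied little (common dispersion 0.000172). The median log2 change of all genes was 0.00 and the median absolute log2 change was 0.26.

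**Figure D1:**
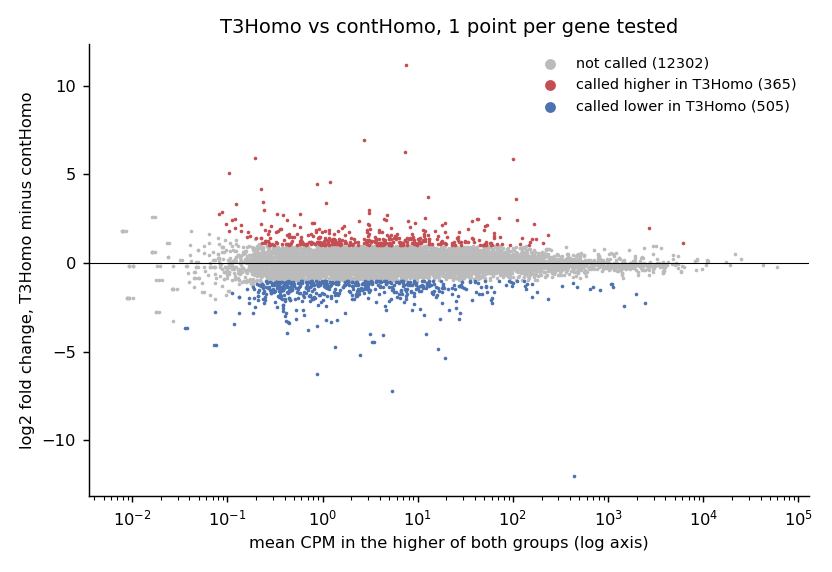
Log2 fold change (T3Homo minus contHomo, vertical axis) against the mean level in the higher of both groups (CPM, log axis), 1 point per gene tested. The 365 genes called higher and 505 called lower lie beyond a log2 change of 1 in either direction, and 1 fall reaches a log2 change of -11.98.

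The share of genes called was highest among genes with few counts. Among the 2076 genes with a mean under 1 CPM in the higher group, 5.30% were called higher and 9.73% lower. In the class of 20 to 100 CPM the shares were 1.47% and 1.41%, in that of 100 to 1000 CPM 1.14% and 1.66%, and among the 205 genes at 1000 CPM and over they were 0.976% and 2.93%. The median level in the higher group was 3.10 CPM for the rises and 1.68 CPM for the falls, against 8.84 CPM for all genes tested. At 5 CPM or more there were 144 rises and 161 falls, and under 5 CPM there were 221 rises and 344 falls.

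The rise with the highest fold among genes at 5 CPM or more was ENSXETG00000012944 (scaffold GL173114.1:648500-685614, minus strand, 2 exons). It had 0 counts in each contHomo library and 7.46, 7.81 and 7.39 CPM in the T3Homo libraries. The T3Homo mean was at least 269-fold that of contHomo, against a floor of 3 counts summed over the group. Genes named by identifier were picked for a high fold and no overlap between the libraries of both groups, so that separation is by choice. It had 0 counts in contWT as well and 17.6, 17.5 and 15.8 CPM in the T3WT libraries, so both T3 columns carried it and neither cont column did. With both cont groups at 0 counts, the difference between both steps could not be estimated.

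The next rise was ENSXETG00000022372 (GL172648.1:4315240-4323682, plus strand, 8 exons). The contHomo libraries had 0.110, 0.0614 and 0.106 CPM and the T3Homo libraries 7.12, 7.11 and 7.90 CPM. The log2 fold change was 6.25 (edgeR adjusted p = 1.15e-49), a ratio of means of 79.9 resting on 10 counts in contHomo and 907 in T3Homo. Leaving out contHomo libraries 1, 2 and 3 in turn gave log2 fold changes of 6.38, 6.05 and 6.35. In contWT the mean was 0.163 CPM and in T3WT 49.3 ± 0.539 CPM. The step here minus that from contWT to T3WT was -1.95 on the log2 scale (edgeR adjusted p = 0.00431). It was -1.82, -2.14 and -1.84 without contHomo libraries 1, 2 and 3 in turn. Of its 4 nearest tested neighbours 2 were also called, with log2 changes between -4.60 and 2.44 over the 4.

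The largest fall was ENSXETG00000005714 (GL173212.1:277880-281520, plus strand, 4 exons, 453 exonic bases). The contHomo libraries had 443, 444 and 433 CPM and the T3Homo libraries 0.0927, 0.145 and 0.0775 CPM. The contHomo group therefore held 47008 counts of it and the T3Homo group 13, a ratio of means of 4189 (log2 fold change -11.98, edgeR adjusted p = 2.81e-119). Leaving out T3Homo libraries 1, 2 and 3 in turn gave log2 fold changes of -11.89, -12.28 and -11.82. The other groups were also low, with 0.632 ± 0.125 CPM in contWT and 6.42 ± 0.144 CPM in T3WT, so contHomo was the high group among the 4. Between both steps the log2 difference was -15.33, and -15.23, -15.62 and -15.16 without T3Homo libraries 1, 2 and 3 in turn. None of its 3 nearest tested neighbours was called, with log2 changes of -0.14 to 0.03.

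ENSXETG00000017955 (GL173118.1:50743-57766, plus strand, 8 exons) had the same order of groups at a lower level. Its contHomo libraries had 5.33, 5.71 and 5.10 CPM, and the T3Homo libraries had 0, 0.0967 and 0 CPM, or 573 counts against 4. The ratio of means was 167 and the log2 fold change -7.23 (edgeR adjusted p = 4.10e-43). The contWT mean was 0.0384 CPM and the T3WT mean 0.133 CPM, again leaving contHomo alone at a high level. Its log2 difference between both steps was -8.95, and 0 of 3 neighbours were called. All 4 counts in T3Homo came from library 2. Without it T3Homo is at 0 counts, and the fitted changes of -10.70 and, between both steps, -12.42 are then no bounds. Without T3Homo library 1 they were -6.66 and -8.36.

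**Figure D2:**
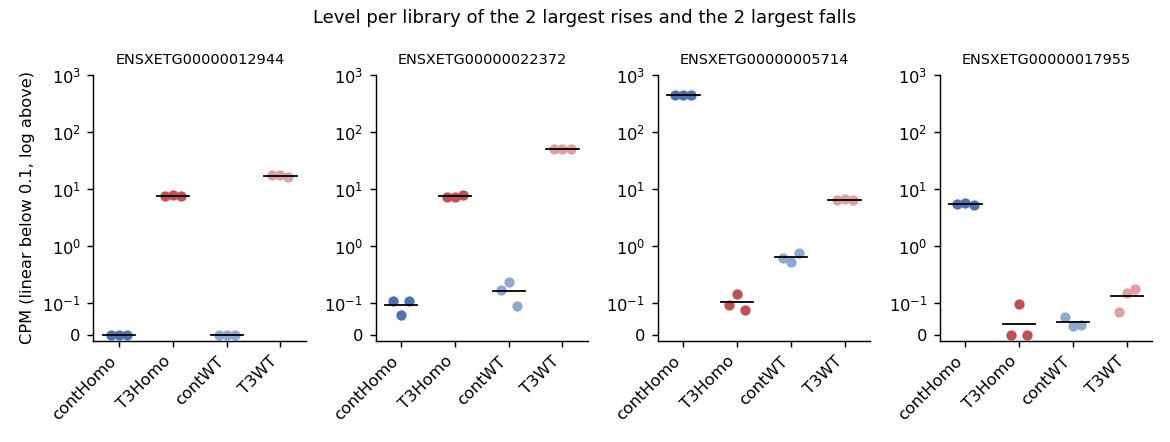
Level in CPM (linear below 0.1, log above) of the 2 rises and the 2 falls with the highest folds, 1 point per library and a bar at each group mean of 3. For both rises the T3Homo and T3WT libraries sit above both cont groups, and for both falls contHomo alone sits high.

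Of the 205 genes at 1000 CPM or more in the higher group, 2 were called higher and 6 lower. They are located by scaffold, because the table gives no names. The gene at GL172686.1:226898-288483 (46 exons) had 2679, 2769 and 2774 CPM in contHomo and 6239, 6082 and 6027 CPM in T3Homo. Its means were 2183 CPM in contWT and 2642 CPM in T3WT, a log2 change of 0.28, so T3Homo alone stood high. The difference between both steps was 0.88 ± 0.02 (SE) on the log2 scale, under the fold threshold and so not called. The gene at GL173081.1:871398-877752 had 685, 679 and 668 CPM in contHomo and 2749, 2705 and 2680 CPM in T3Homo. It went from a mean of 103 CPM in contWT to 1633 CPM in T3WT, and the difference between both steps was -1.98 ± 0.02 (SE).

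Among the 6 falls, the gene at GL172665.1:2401509-2406629 had log2 changes of about the same size in both pairs of groups. Its means were 2426 ± 30.1 CPM in contHomo and 514 ± 10.2 CPM in T3Homo, and 3027 ± 22.1 CPM in contWT and 651 ± 2.53 CPM in T3WT. The log2 changes were -2.24 and -2.22, and their difference of -0.02 ± 0.02 (SE) gave an edgeR adjusted p of 0.366. Under total-count scaling that difference was -0.37 (adjusted p = 2.32e-32), beside -0.34 over all genes. For the genes at GL172652.1:1007518-1013343, GL173417.1:181794-188911 and GL172906.1:82895-85727 the fall was smaller here than in T3WT. Their log2 changes here were -1.72, -2.39 and -1.17, and the differences between both steps were 1.42, 1.25 and 2.68, all called. The gene at GL172713.1:2975355-2987412 fell from 1091 ± 13.2 to 486 ± 3.21 CPM in T3Homo while its means were 1342 CPM in contWT and 1510 CPM in T3WT, a difference between both steps of -1.34 ± 0.02 (SE). The sixth, at GL172806.1:2032910-2053507, fell by 1.34 here and by 1.46 in T3WT on the log2 scale.

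Past the 2-fold threshold, the median change of the rises was matched by the step in the other 2 columns, and that of the falls was not. With an adjusted p below 0.05 alone this contrast was not seen. The median difference between both steps was then -0.02 for the falls and 0.14 for the rises. The 365 rises had a median log2 change of 1.29 here and of 1.25 from contWT to T3WT. The 505 falls had a median of -1.41 here and of -0.14 from contWT to T3WT, a step in which 18.0% of all genes were called, 12.8% higher and 5.14% lower. In medians over genes, the rises went from 1.08 CPM in contHomo to 3.10 CPM in T3Homo and from 1.43 CPM in contWT to 3.48 CPM in T3WT. The falls went from 1.68 to 0.561 CPM here, and had 1.68 CPM in contWT and 1.43 CPM in T3WT. The sign of the falls' median in that step turned with the scaling. Under total-count scaling, with 459 falls, it was 0.26, beside 0.45 over all genes. There 2995 genes were called higher and 271 lower in T3WT, against 1691 and 677 with TMM factors.

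The difference between both steps was tested for each gene. Over all genes it was called for 15.6%, 3.24% positive and 12.4% negative (427 and 1632 genes; 180 and 2516 under total-count scaling). Among the 505 falls it was negative for 301 (59.6%), positive for 21 (4.16%) and not called for 183 (36.2%). Among the 365 rises it was positive for 53 (14.5%), negative for 76 (20.8%) and not called for 236 (64.7%). Since T3Homo and contHomo libraries enter both the choice of these genes and the difference, a fall here tends towards a negative difference and a rise towards a positive one by construction. At 5 CPM or more the shares were alike, with 87 of 161 falls negative (54.0%, against 4.27% of all genes at that level) and 23 of 144 rises positive (2.93% of all genes). At that level 24 of the 144 rises were negative (16.7%) and 9 of the 161 falls positive (5.59%). Under 5 CPM the difference was negative for 25.6% of all genes, for 62.2% of the 344 falls and for 23.5% of the 221 rises. It was positive there for 3.74% of all genes, for 3.49% of the falls and for 13.6% of the rises. The gap between falls and rises depended on the fold threshold. With an adjusted p below 0.05 alone, by which 64.3% of all genes had a difference (34.1% positive, 30.3% negative), 1573 falls had a negative difference and 1466 a positive one, and the median difference of the falls was -0.02. Among the rises at the same setting, 1890 had a positive difference and 878 a negative one, with a median of 0.14.

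Of the 505 falls, 93 (18.4%) were called higher from contWT to T3WT, beside 12.8% of all genes. Their medians were 1.78 there and -1.48 here. Opposite calls fix the sign of the difference, so all 93 are among the 301 falls with a negative one. A further 201 of the 301 were not called in that step, and 7 were called lower in it. Of the 365 rises, 14 (3.84%) were called lower from contWT to T3WT, beside 5.14% of all genes. By the same construction all 14 are among the 53 rises with a positive difference. The shares of all genes given here are over all levels, while 344 of the 505 falls and 221 of the 365 rises lay under 5 CPM. Shares matched by level were not taken, so an excess over all genes cannot be read from these values. The opposite directions of these 93 and 14 genes hold for the columns as named, and under the titles both steps take other names while the difference keeps its value.

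**Figure D3:**
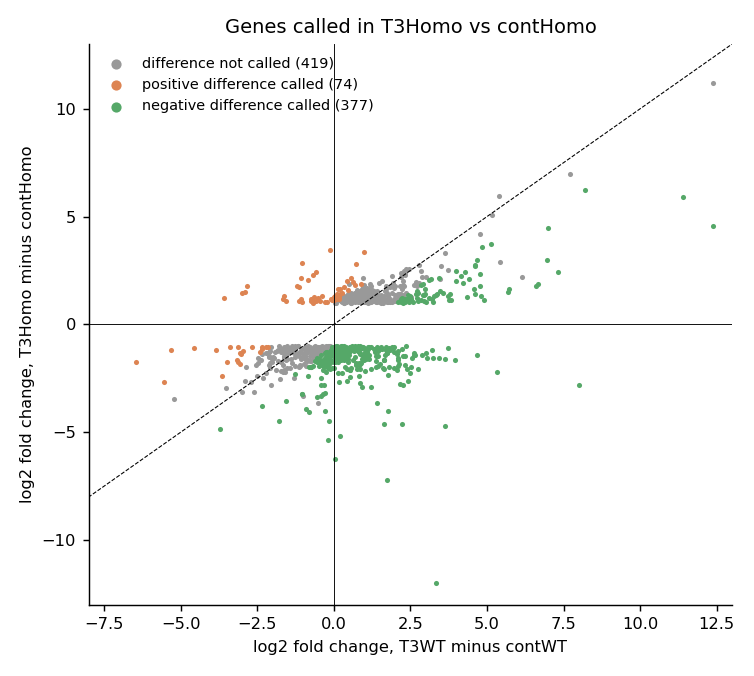
Log2 fold change from contHomo to T3Homo (vertical axis) against that from contWT to T3WT (horizontal axis) for the 870 genes called in T3Homo vs contHomo, coloured by the called difference between both steps. The dashed line marks equal steps. Many rises lie near it, while many falls lie around 0 or to its right on the horizontal axis, in green where the difference was called negative.

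The groups were also set apart by means that differed at least 2-fold. Among the rises, 153 (41.9%) had both T3 columns above both cont columns, 22 had T3Homo alone above the other 3 groups, and 44 had contHomo alone below them. Among the falls, 67 (13.3%) had both T3 columns below both cont columns, 192 (38.0%) had T3Homo alone below the other 3 groups, and 39 had contHomo alone above them. ENSXETG00000017955 is among the 39. In 5 falls, ENSXETG00000005714 among them, contHomo lay above and T3Homo below all other groups. The 192 genes with T3Homo alone low had a median of 1.16 to 1.29 CPM per contHomo library, 0.426 to 0.464 per T3Homo library, 2.01 to 2.29 per contWT library and 2.21 to 2.29 per T3WT library. T3Homo is the lowest group here by the choice of these genes, and 55 of the 192 genes reached 5 CPM in the higher of contHomo and T3Homo. All genes counted here were called, so a 2-fold gap between T3Homo and contHomo is part of their choice. Shares over all genes tested were not taken. These are counts of group orders, for which no test was made.

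Among classes of exon number, the share of falls was highest for genes with the most exons. Of the 365 genes with 40 or more annotated exons, 28 were called lower (7.67%) and 7 higher (1.92%). In the class of 20 to 39 exons the shares were 2.78% and 2.32%, and for genes of 1 exon 6.67% and 4.95%. The class of 40 or more exons was not shifted down as a whole, with a median log2 change of 0.03. At an adjusted p below 0.05 alone, 106 of its genes were lower (29.0%, against 31.1% of all genes) and 124 were higher. The class limits were set after the values were seen, and the share called did not follow summed exon length in the same way. The 28 falls had 40 to 120 exons, log2 changes of -2.41 to -1.01 and median levels of 5.32 CPM in contHomo, 2.33 CPM in T3Homo, 3.82 CPM in contWT and 4.58 CPM in T3WT. The difference between both steps was called negative for 24 of them and positive for 0, against 59.6% negative among all 505 falls. As falls they tend towards a negative difference by construction. Over all 365 genes of the class it was negative for 73 (20%, against 12.4% of all genes) and positive for 6, with a median of -0.09. The sets described below share genes with the 28, among them genes of the runs on GL173192.1 and GL173372.1.

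**Figure D4:**
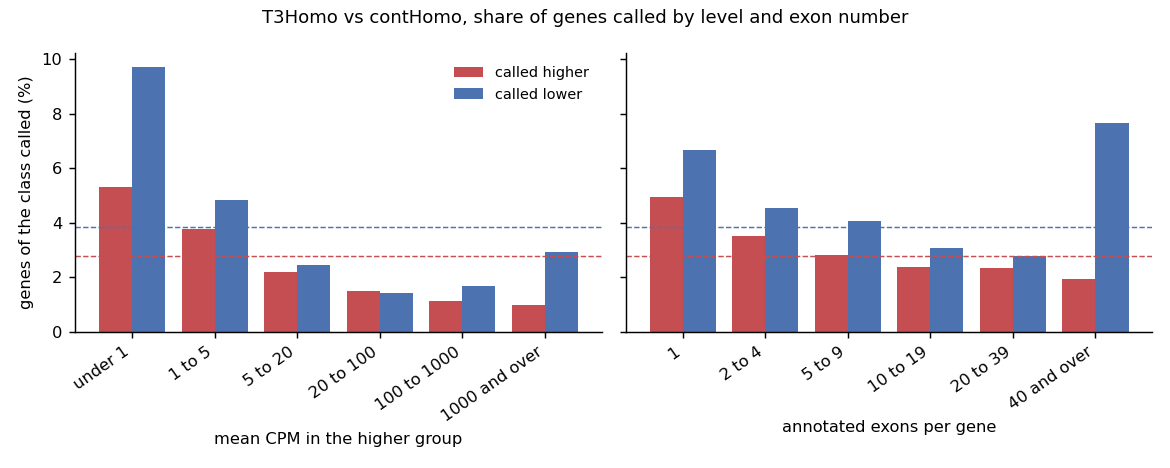
Share of genes called higher (red) and lower (blue) in T3Homo vs contHomo, in percent of the genes tested in a class, by mean CPM in the higher group (left) and by annotated exons (right). Dashed lines mark the shares over all genes, 2.77% and 3.83%. The blue bar for 40 exons and over reaches 7.67% while the red bar stays at 1.92%.

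Genes with repeated exons of 54 bases were looked at next, a set chosen after the values were seen. The shares below therefore only describe the set, and no test of the set was made. Repeated exons of 54 bases are a known feature of vertebrate fibrillar collagen genes, whose products build connective tissue. The table names no gene, and none is named here from its exons. Of 29 genes with 3 or more such exons, the difference between both steps was called negative for 22 and positive for 1 (12.4% and 3.24% of all genes). Of 14 genes with 10 or more such exons, 8 were lower in T3Homo at an adjusted p below 0.05 and 2 were higher (31.1% and 32.3% of all genes), and 2 and 1 of them passed the fold threshold. Their median log2 change was -0.57 here and 1.405 from contWT to T3WT, where 12 of the 14 were called higher (12.8% of all genes). For 11 of the 14 the step here minus that step was called negative, and for 0 positive (12.4% and 3.24% of all genes), with a median of -2.09, beside 0.01 over all genes.

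The 3 of them with the most counts were all lower in T3Homo than in contHomo at an adjusted p below 0.05, and none reached 2-fold. The gene at GL172791.1:1008038-1034194 (51 exons, 21 of them of 54 bases) had 181, 177 and 176 CPM in contHomo and 92.2, 92.9 and 94.3 CPM in T3Homo. Its means were 158 ± 2.01 CPM in contWT and 320.0 ± 3.69 CPM in T3WT. T3Homo libraries were the lowest and T3WT libraries the highest, without overlap, and the difference between both steps was -1.95. The gene at GL172638.1:2498757-2554566 (55 exons) had means of 150.1 ± 2.30 CPM in contHomo, 122 ± 1.24 CPM in T3Homo, 112 ± 2.87 CPM in contWT and 524 ± 2.54 CPM in T3WT, so contWT was its lowest group and T3WT its highest. The gene at GL173287.1:479229-512647 (53 exons) had 93.8 ± 1.54, 53.9 ± 2.28, 82.8 ± 2.35 and 198 ± 1.76 CPM in the same order of groups. The T3WT libraries also differed in breadth and scaling factor, and the part of this in these values was not tested.

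Called genes were also found side by side. Of the 505 falls, 88 (17.4%) had a directly neighbouring tested gene that fell too, which 6.51% of all genes tested had, and of the 365 rises 32 (8.77%) had a neighbour that rose, which 4.47% of all genes had. There were 7 runs of at least 3 neighbouring genes called alike, 5 lower and 2 higher. Neighbours are adjacent among the genes tested, so genes left out by the filter can lie between them. The run of 3 genes on GL172699.1 spans 8 annotated genes and that of 3 on GL173192.1 spans 4. The spans of the other runs hold only the genes of the run. Neighbouring genes with exons of equal length can be copies that share reads, so runs are given as summed levels.

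The run with the most counts, at GL173192.1:602540-703636, held 3 genes on 1 strand with 11 to 41 exons, 29 exon lengths of which were shared by at least 2 of them. Its summed level was 344, 339.6 and 349 CPM in contHomo and 117, 118 and 119 CPM in T3Homo. The same sum was 276 ± 4.63 CPM in contWT and 719 ± 9.46 CPM in T3WT. T3Homo was lowest and T3WT highest, each 3 libraries apart from the rest, and all 3 genes had a negative difference between both steps. The run of 4 genes at GL173371.1:246262-294833 had the same form. Its sum was 16.99, 17.4 and 16.9 CPM in contHomo, 6.21, 5.56 and 6.38 CPM in T3Homo, 17.7 ± 0.523 CPM in contWT and 38.0 ± 0.744 CPM in T3WT, with a negative difference in steps for all 4 genes, 1 pair of which overlaps. In the run at GL172699.1:876528-1105150, 3 genes summed to 19.3 ± 0.230 CPM in contHomo, 6.73 ± 0.207 CPM in T3Homo, 12.1 ± 0.981 CPM in contWT and 18.8 ± 0.216 CPM in T3WT.

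In the other 2 falling runs the summed level went down in both pairs of groups. In each of them 1 gene had a called negative difference between both steps. At GL172646.1:5080775-5135755 the sum of 3 genes was 2.49 ± 0.246 CPM in contHomo and 0.493 ± 0.0486 CPM in T3Homo, and 34.5 ± 1.42 CPM in contWT and 7.75 ± 0.426 CPM in T3WT. At GL173372.1:288559-407345 the sum of 3 genes of 38 to 40 exons was 3.08 ± 0.180 CPM in contHomo and 1.29 ± 0.0892 CPM in T3Homo, and 2.53 ± 0.179 CPM in contWT and 1.23 ± 0.211 CPM in T3WT. Within this run ENSXETG00000007942 did not go down in the other pair, with means of 0.135 CPM in contWT and 0.251 CPM in T3WT. In this run 1 pair of genes overlaps. Of the rising runs, the one at GL173215.1:291360-390124 went from 4.10 ± 0.0822 to 10.6 ± 0.275 CPM here and from 6.94 ± 0.186 to 15.2 ± 0.260 CPM from contWT to T3WT, where all 3 genes were called higher too. The one at GL172670.1:2983987-3031406 went from 0.521 ± 0.102 to 2.32 ± 0.248 CPM here and from 0.806 ± 0.123 to 2.19 ± 0.297 CPM in the other pair. Its 3 genes moved unlike one another there, with 1 called higher and 1 lower.

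**Figure D5:**
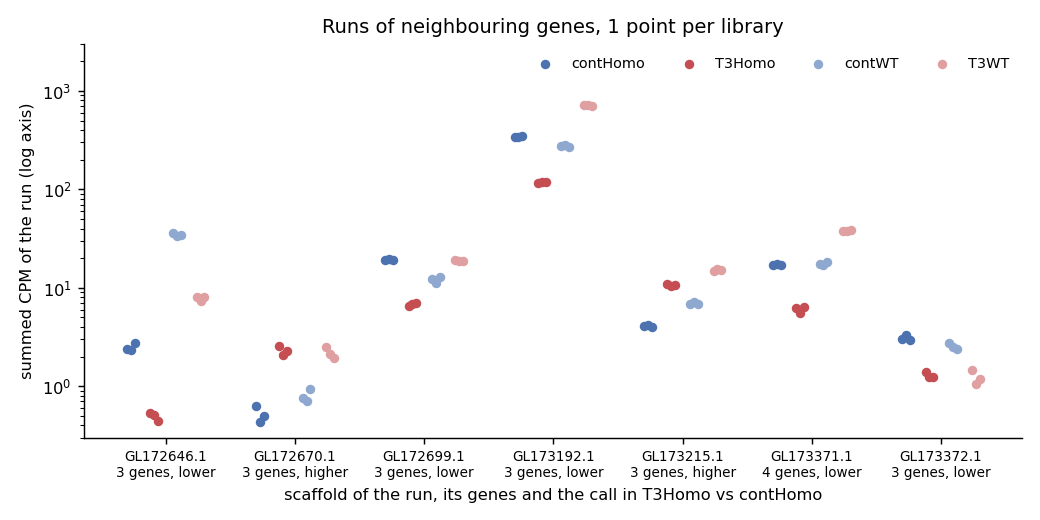
Summed level (CPM, log axis) of the genes of each of the 7 runs of neighbouring genes, 1 point per library, grouped by run and coloured by group. In each run the 3 T3Homo points lie apart from the 3 contHomo points, which comes with the choice of called genes. For the runs on GL173192.1 and GL173371.1 the T3WT points are the highest of all.

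Genes of the mitochondrial genome, which encode subunits of the respiratory chain and ATP synthase, moved little. Of the 13 protein-coding genes, 12 were lower in T3Homo at an adjusted p below 0.05, which 31.1% of all genes were, and 0 reached 2-fold, with log2 changes of -0.40 to -0.03 and a median of -0.19. The highest of these, ATP8, did not pass and had a log2 change of 0.0138 under total-count scaling. Together they took 1.87 ± 0.0229% of counts in contHomo and 1.71 ± 0.0142% in T3Homo (exact permutation test, p = 0.1, the smallest possible).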

How the data were processed

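Each deposited value is a whole-number count of reads per gene and library, not normalized, per the file headers. Per the submitters' processing notes, STAR 2.5.3a aligned the reads and featureCounts 1.4.6-p3 counted them. Not given in the sources used here are the build, the annotation, whether strand was used and what was done with reads that align more than once. Overlapping genes, and genes antisense to one another, cannot be told apart without strand. Coordinates are those of the deposited table. No sequence is printed.

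Genes were filtered with filterByExpr (minimum count 10), which left 13172 of 19921, and scaled with TMM factors. A fit with a coefficient for each of the 4 groups was made on all 12 libraries (edgeR 4.0.16, R 4.3.3), and quasi-likelihood tests were adjusted by Benjamini-Hochberg over all genes tested. Calls needed an adjusted p below 0.05 and at least a 2-fold difference. The fit was also run on counts simulated with the common dispersion for every gene. That run does not cover spread that differs between genes or changes in genes with few counts, and no result here rests on it. Exact permutation tests used SciPy 1.17.1. Chi-square tests found that all pairs of libraries of a group differed by more than sampling noise (1.26 to 1.88 per gene; largest p = 1.09e-78), so they were counted separately. Depth was 34322099 to 44755390 counts per library, and the floor, 3 counts over the libraries of a group, was 0.0225 to 0.0290 CPM. Floors cover counting error only.

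The members and lists were chosen with earlier results of these data known. The rule for named genes took, with no names to match, the 2 rises and the 2 falls with the highest fold at 5 CPM or more and no overlap between libraries, the mitochondrial protein-coding genes by their coordinates, and every run of at least 3 neighbouring genes. Genes at 1000 CPM or more and those with 54-base exons were added after their values were seen. Gene lists of T3 targets, cell types and pathways could not be matched and were not used. Alternatives were other scaling factors, no filter, a replicate block, no fold threshold, glmTreat, a fit on the 6 libraries, DESeq2 1.42.0 and leaving out each library.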

Additional observations from a re-analysis of the deposited data

Results flagged for a closer look

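The step from contHomo to T3Homo differed from the step from contWT to T3WT for 2059 genes (15.6% of those tested) by the test of the difference itself. Among the genes lower in T3Homo, 301 (59.6%) had a called negative difference, which 12.4% of all genes had. These genes were chosen by their fall here, which is part of the difference, so a negative one is favoured by construction. For the genes named above, the tested difference on the log2 scale was -1.95 for ENSXETG00000022372, -15.33 for ENSXETG00000005714 and -8.95 for ENSXETG00000017955. They too were picked by the fold in T3Homo vs contHomo, so the large negative values of the latter, both falls, follow in part from that choice. All 13 mitochondrial protein-coding genes had a negative difference at an adjusted p below 0.05 (edgeR), a threshold at which 30.3% of all genes had a negative one. The value for ENSXETG00000017955 rests on 4 T3Homo counts, all in library 2.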

How the results depend on the processing

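The calls rest on the fold threshold, and the comparison with T3WT rests in part on the scaling. With an adjusted p below 0.05 alone, 8351 genes passed in T3Homo vs contHomo (4255 higher, 4096 lower), 10340 in T3WT vs contWT (5468 higher, 4872 lower) and 8471 in the difference between both steps (4486 positive, 3985 negative). With glmTreat against 2-fold the counts were 369 (149 higher, 220 lower), 1470 (1034 higher, 436 lower) and 1016 (221 positive, 795 negative). With total-count scaling, T3WT vs contWT had 2995 higher and 271 lower genes and the difference 180 positive and 2516 negative ones. That scaling moved the median log2 change of all genes to 0.45 in T3WT vs contWT and to -0.34 in the difference, but only to 0.05 in T3Homo vs contHomo. Under it there were 459 falls, with a median of 0.26 from contWT to T3WT, and 327 of them had a negative difference. With DESeq2, 285 of 500 falls had one, and in the main fit 301 of 505. The falls with both T3 columns low numbered 41 under total-count scaling. It also turned 2 signs, the change of ATP8 in T3Homo vs contHomo (0.0138) and the difference for the gene at GL172806.1:2032910-2053507 (-0.23), neither of them called before. The difference for the gene at GL173417.1:181794-188911 fell under the fold threshold (0.90). The 7 runs became 599 without the fold threshold, 3 with glmTreat and 1 at 4 or more genes. In DESeq2, 329 genes were higher and 500 lower in T3Homo.

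Leaving out each library in turn gave 872 to 898 called genes in T3Homo vs contHomo, 357 to 379 higher and 509 to 520 lower, and 6 to 9 runs. ND4L, a mitochondrial gene, lost its adjusted p below 0.05 without contHomo library 1 (edgeR adjusted p = 0.113) or T3Homo library 2 (0.109), and under total-count scaling (0.179). With DESeq2, 12 of the 13 mitochondrial genes had a negative difference at that threshold. The replicate block gave 872 calls and 303 falls with a negative difference. The numbers do not pair the libraries, since the correlations of same-numbered deviations from the group means were -0.03, -0.00 and 0.02. Of the called genes, 344 of 505 falls and 221 of 365 rises lay under 5 CPM.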
